A study of Mus musculus with 10 samples.

Results

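NK cell receptor transcripts were measured in CT26 tumors that were resected before the remaining tumor was treated with a poly(I:C) hydrogel. The 10 genes were chosen by name, as the rows of the count table named Ncr1, Klrb1c, Klrb1b, Klrk1, Klrd1, Klrc1, Klrc2, Klre1, Klri2 or Klrg1, and they are 10 of the 36009 genes in that table. CT26 is a colorectal carcinoma line of BALB/c origin, and it was grown under the skin of female wild-type BALB/c mice. The comparison was between 6 responders, whose tumors later regressed completely, and 4 non-responders, whose tumors grew without delay. Every tumor was untreated when it was sampled, and the mice were bought as young adults. Tumors are numbered within each group in the order of their records, and the numbers are only names.

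Natural killer (NK) cells are innate lymphocytes that read a balance of activating and inhibitory receptors at the surface of another cell. Many of these receptors are C-type lectin-like proteins encoded together in the NK gene complex, and they recognize MHC class I, stress-induced ligands or C-type lectin-like partners. Activating receptors signal through adaptors that carry tyrosine motifs or recruit phosphatidylinositol 3-kinase. Inhibitory receptors carry an immunoreceptor tyrosine-based inhibitory motif (ITIM) that recruits phosphatases. Several of these genes, Klrk1, Klrd1 and the Klrc genes among them, are also used by activated CD8 T cells, and Ncr1 is the most NK-restricted of the set. In BALB/c mice the NK gene complex differs from that of the C57BL/6 reference: the Klrb1c product is not bound by the classical NK1.1 antibody and the Klra (Ly49) cluster holds fewer genes. In bulk tissue, fewer cells of a type and less RNA per cell cannot be told apart.

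By role, 5 of the genes encode activating receptors (Ncr1, Klrb1c, Klrk1, Klrc2 and Klri2), 3 encode inhibitory receptors (Klrb1b, Klrc1 and Klrg1) and 2 encode partner chains (Klrd1 and Klre1). In the GENCODE annotation of GRCm38, 9 of the 10 lie on chromosome 6. Klrg1 lies at chr6:122270596-122282882, apart from the rest. The Klrb1 pair follows with Klrb1c at chr6:128778485-128789215 and Klrb1b at chr6:128813706-128826331, both on the minus strand. The remaining genes run from Klre1 at chr6:129577905-129585827 and Klrd1 at chr6:129591782-129598775, both on the plus strand, through Klrk1 at chr6:129610323-129623864, Klrc2 at chr6:129647496-129660689 and Klrc1 at chr6:129666015-129678973 to Klri2 at chr6:129729041-129740484, these 4 on the minus strand. Ncr1 lies on another chromosome, at chr7:4337724-4345164 on the plus strand.

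The coding sequences were read for the motif that inhibitory members carry. Codons were searched for the ITIM pattern, which is a codon for isoleucine, leucine, valine or serine, any codon, a tyrosine codon, any 2 codons and a codon for isoleucine, leucine or valine. Ncr1 encodes a type I membrane protein, and the lectin-like members are type II proteins whose cytoplasmic tail is at the start of the reading frame. Within the first 20 codons of the longest annotated reading frame, the pattern was found in all 3 inhibitory members, in 0 of the 5 activating members and in 0 of the 2 partner chains. Among all 21611 coding genes, 2.87% had such a match in their first 20 codons. The 6 codons are shown from the GENCODE transcripts, 5′ to 3′, with the tyrosine codon in capitals. They lie in exon 1 of each gene, at chr6:128826214-128826231 in Klrb1b (tyrosine codon 8), chr6:129678878-129678895 in Klrc1 (codon 8) and chr6:122282782-122282799 in Klrg1 (codon 7), all on the minus strand.
Klrb1b: ctggtcTATgcagattta
Klrc1: gtcaccTATgcagaactg
Klrg1: tctatcTATtcaacacta
Matches beyond the first 20 codons were found in Klrb1c (codon 55), Klrk1 (codon 192), Klrc2 (codon 91) and Klrg1 (codon 56). That of Klrb1c depends on the start used: the annotated frame holds an ATG at codon 49, and counted from it the tyrosine codon is codon 7, so the early pattern does not separate the inhibitory from all activating members. It lies at chr6:128788452-128788469 in exon 1 on the minus strand.
Klrb1c: agtatcTACctcggttta

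Sequence sharing sets how well the values of some members can be told apart. Klrc1 (NKG2A) and Klrc2 (NKG2C) are paralogs with opposite signaling that both pair with Klrd1 (CD94). Their aligned coding sequences were 82.8% identical, and their longest shared run was 100 bases in exon 6 of both genes, at chr6:129674862-129674961 in Klrc1 and chr6:129656374-129656473 in Klrc2. It is shown because the bases inside it cannot tell Klrc1 from Klrc2. The reads as sequenced were longer than this run, and its effect on their assignment was not tested.
Klrc1 and Klrc2 shared run: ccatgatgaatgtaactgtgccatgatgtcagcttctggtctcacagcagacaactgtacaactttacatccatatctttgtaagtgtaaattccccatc
Of the 31-base words in the transcripts of Klrc1, 53.1% also occurred in transcripts of other genes, and the share was 21.6% for Klrc2, 30.8% for Klrb1b, 21.2% for Klrb1c and 7.62% for Klri2. It was at most 1% for Ncr1, Klrk1, Klrd1, Klre1 and Klrg1. Klrb1b and Klrb1c were 85.7% identical over aligned coding bases and share exons on the same strand with Gm44511, an annotated gene that overlaps both. Gm44511 had between 52.2 and 148 estimated counts in responders and between 9.95 and 45.7 in non-responders. Klrc1, Klrc2, Klrb1b and Klrb1c are therefore given as uncertain in how reads were split among paralogs.

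All 10 members passed the filter on low counts, and the fitted level of all 10 was higher in responders. Of these, 5 rose at an adjusted p under 0.05 (edgeR quasi-likelihood test, Benjamini-Hochberg adjustment over 16041 genes), against 4.71% of all genes tested: Klrk1, Klri2, Klrb1b, Klrc1 and Klre1. The median log2 fold change was 1.15 over the members and -0.01 over all genes tested. At an unadjusted p under 0.05, 9 of the 10 were higher, against 15.6% of all genes, and at an adjusted p under 0.1, 8 were higher, against 10.5%. In 4 members every responder lay above every non-responder, against 5.84% of all genes. The members were chosen with earlier results of these data known, so these shares are a description only. By role, 2 of the 5 activating receptors, 2 of the 3 inhibitory receptors and 1 of the 2 partner chains rose.

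**Figure D1:**
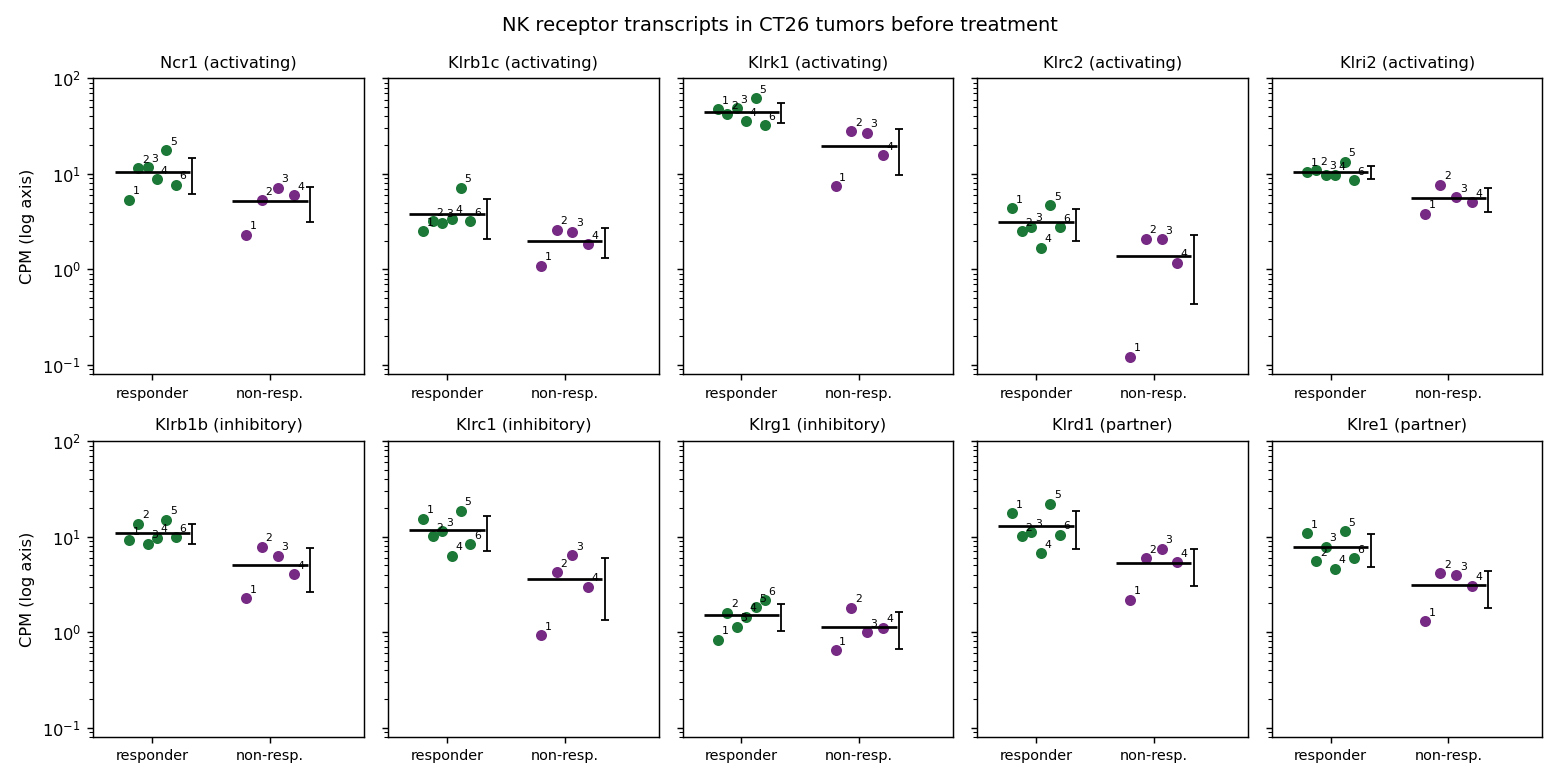
Level (CPM, log axis) of each NK receptor gene in each tumor, with responders in green, non-responders in purple and the tumor number beside each point; lines are group means and bars are the SD (n = 6 and n = 4). The groups do not overlap for Klrk1, Klri2, Klrb1b and Klre1, and non-responder 1 is the lowest point in all 10 panels.

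Among the activating receptors, Klrk1 encodes NKG2D, which binds stress-induced ligands of the Raet1, H60 and Ulbp1 families. Levels are given as CPM, counts scaled to a common library size by TMM. Klrk1 was at 47.6, 42.3, 48.6, 35.8, 61.8 and 32.3 CPM in responders 1 to 6 and at 7.43, 28.1, 27.0 and 15.7 CPM in non-responders 1 to 4. The lowest responder lay above the highest non-responder. Its mean was 44.7 ± 10.5 CPM (SD, n = 6) against 19.6 ± 9.85 CPM (SD, n = 4), a log2 fold change of 1.19 (edgeR, adjusted p = 0.0448, SE 0.32).

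Klri2 encodes an activating lectin-like receptor that pairs with the Klre1 chain. Levels of 10.6, 10.96, 9.80, 9.74, 13.4 and 8.56 CPM in responders 1 to 6 stood against 3.84, 7.69, 5.72 and 5.04 CPM in non-responders 1 to 4. The groups did not overlap, and the responders kept within a narrow range. The means were 10.5 ± 1.63 CPM (SD, n = 6) and 5.57 ± 1.61 CPM (SD, n = 4), and the log2 fold change of 0.91 had the smallest SE of the 10 members (edgeR, adjusted p = 0.0264, SE 0.18).

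Ncr1 encodes NKp46, an activating immunoglobulin-like receptor and the defining NK cell marker among the members. It measured 5.39, 11.4, 11.7, 8.81, 17.8 and 7.70 CPM in responders 1 to 6 and 2.30, 5.34, 7.20 and 5.97 CPM in non-responders 1 to 4. Responder 1 fell within the range of the non-responders, and the other 5 responders lay above it. The means of 10.5 ± 4.30 CPM (SD, n = 6) and 5.20 ± 2.08 CPM (SD, n = 4) gave a log2 fold change of 1.01 that did not pass the threshold (edgeR, adjusted p = 0.0866, SE 0.35).

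Klrb1c encodes NKR-P1C, an activating receptor known as NK1.1 in other strains. The responders, by number, stood at 2.50, 3.22, 3.10, 3.40, 7.13 and 3.21 CPM, and the non-responders at 1.09, 2.61, 2.47 and 1.84 CPM. Responder 1 again lay inside the non-responder range, and responder 5 stood well above every other tumor. The log2 fold change was 0.91 and did not pass (edgeR, adjusted p = 0.0940, SE 0.32), with means of 3.76 ± 1.68 and 2.004 ± 0.70 CPM (SD, n = 6 and n = 4).

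Klrc2 encodes NKG2C, the activating partner of CD94. Values of 4.36, 2.50, 2.79, 1.68, 4.73 and 2.77 CPM were found in responders 1 to 6, and of 0.12, 2.09, 2.08 and 1.18 CPM in non-responders 1 to 4. The value of non-responder 1 rests on 3 counts, and responder 4 lay below non-responders 2 and 3. The mean was 3.14 ± 1.17 CPM (SD, n = 6) against 1.37 ± 0.93 CPM (SD, n = 4), and the log2 fold change of 1.20 did not pass (edgeR, adjusted p = 0.137, SE 0.50).

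Of the inhibitory receptors, Klrc1 encodes NKG2A, which with CD94 binds the nonclassical MHC molecule Qa-1, the product of H2-T23. It stood at 15.4, 10.1, 11.4, 6.30, 18.7 and 8.32 CPM in responders 1 to 6 and at 0.93, 4.22, 6.37 and 2.99 CPM in non-responders 1 to 4. The overlap was limited to responder 4 and non-responder 3, which lay close together. With means of 11.7 ± 4.60 CPM (SD, n = 6) and 3.63 ± 2.28 CPM (SD, n = 4), its log2 fold change of 1.70 was the largest of the 10 members (edgeR, adjusted p = 0.0420, SE 0.43).

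Klrb1b encodes NKR-P1B, an inhibitory receptor for the lectin-like ligand Clr-b, the product of Clec2d. Responders had 9.19, 13.7, 8.43, 9.77, 15.1 and 9.86 CPM, in the order of their numbers, and the non-responders had 2.26, 7.80, 6.29 and 4.04 CPM. The groups did not overlap, although responder 3 and non-responder 2 lay close together. Mean levels of 11.0 ± 2.70 CPM (SD, n = 6) and 5.10 ± 2.44 CPM (SD, n = 4) gave a log2 fold change of 1.11 (edgeR, adjusted p = 0.0452, SE 0.30).

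Klrg1 encodes an inhibitory receptor for cadherins that marks mature NK cells and effector T cells. By number, the responders had 0.83, 1.59, 1.14, 1.45, 1.82 and 2.17 CPM, and the non-responders had 0.65, 1.79, 0.997 and 1.12 CPM. The groups overlapped widely, and this was the one member without an unadjusted p under 0.05. The means of 1.499 ± 0.48 and 1.14 ± 0.48 CPM (SD, n = 6 and n = 4) differed by less than 1 SD, with a log2 fold change of 0.40 (edgeR, adjusted p = 0.418, SE 0.31).

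Of the partner chains, Klrd1 encodes CD94, the common chain of the NKG2A and NKG2C receptors. Its level was 17.6, 10.1, 11.1, 6.73, 22.05 and 10.5 CPM in responders 1 to 6 and 2.18, 5.94, 7.50 and 5.37 CPM in non-responders 1 to 4. As for Klrc1, responder 4 and non-responder 3 alone crossed. The means were 13.0 ± 5.66 CPM (SD, n = 6) and 5.25 ± 2.23 CPM (SD, n = 4), and the log2 fold change of 1.31 lay just short of the threshold (edgeR, adjusted p = 0.0517, SE 0.37).

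Klre1 encodes the chain that pairs with the inhibitory Klri1 or the activating Klri2 product. It was read at 10.9, 5.56, 7.84, 4.62, 11.4 and 5.95 CPM in responders 1 to 6 and at 1.29, 4.14, 3.95 and 3.05 CPM in non-responders 1 to 4. The groups did not overlap, and responders 1 and 5 were the highest, as they were for Klrd1, Klrc1 and Klrc2. The mean of 7.71 ± 2.86 CPM (SD, n = 6) stood against 3.11 ± 1.30 CPM (SD, n = 4), a log2 fold change of 1.31 (edgeR, adjusted p = 0.0439, SE 0.34).

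**Figure D2:**
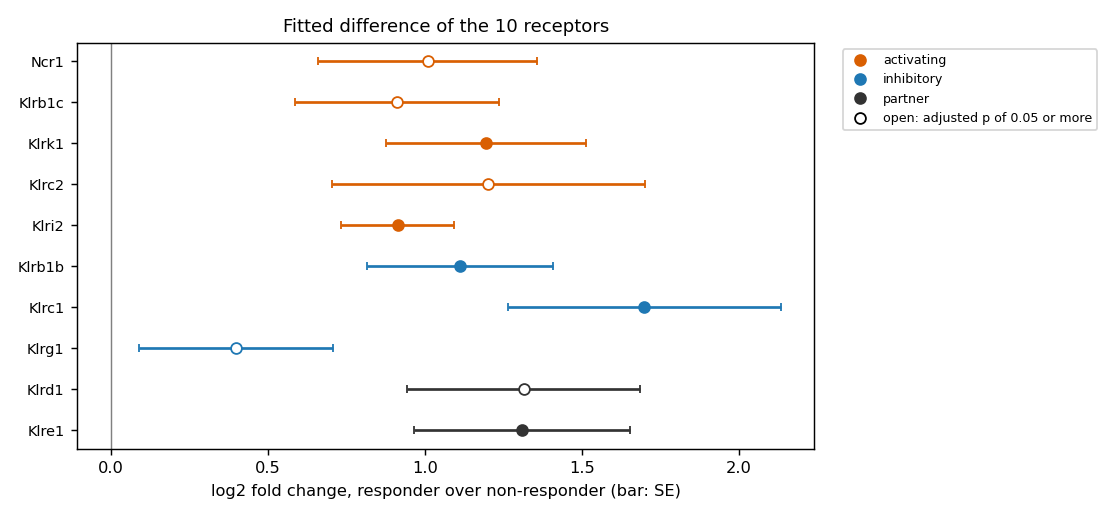
Log2 fold change of each NK receptor gene, responders over non-responders, from the edgeR fit of all 10 tumors, with bars of 1 SE and colors for activating, inhibitory and partner chains; filled points have an adjusted p under 0.05. All 10 estimates lie above 0, from 0.40 for Klrg1 to 1.70 for Klrc1, and 5 are filled.

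The lowest tumor was the same for all members and the highest for nearly all, but responders did not keep the same order. Non-responder 1 had the lowest level of all 10 genes, and responder 5 had the highest of 9, the exception being Klrg1, which was highest in responder 6. Over the 10 tumors, Pearson r between the log2 CPM of 2 members ran from 0.44 to 0.98. Within the 6 responders it ran from -0.39 for Klre1 and Klrg1 to 0.99 for Klrd1 and Klrc2. Responder 1 was the lowest responder for Ncr1, Klrb1c and Klrg1, and with responder 5 the highest for Klrd1, Klrc1, Klrc2 and Klre1. Summed over the 10 genes, the level was 124, 111, 116, 88.3, 174 and 91.3 CPM in responders 1 to 6 and 22.1, 69.8, 69.6 and 46.3 CPM in non-responders 1 to 4. The count of 5 members depended on the tumors in the fit. It was 0 without responder 2, without responder 3, without non-responder 1 or without non-responder 4, and 1 without responder 1, responder 5, responder 6 or non-responder 3. Without non-responder 2 it was 5 and without responder 4 it was 6. Calls over all genes moved in the same fits. They numbered 1293 with all tumors, 244, 17, 16 and 0 in the 4 fits without a called member, in the order given, 553, 412, 735 and 366 in the 4 fits with 1, 1897 without non-responder 2 and 1619 without responder 4. In all 10 of these fits every member was higher in responders, and between 8 and 10 had an unadjusted p under 0.05. Klri2 passed the adjusted threshold in 5 of the 10 fits, the most of any member.

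Levels of different genes were compared per length, as CPM per kilobase of the median coding transcript. In responders Klrk1 was first at 35.2 ± 8.29 CPM per kilobase (SD, n = 6), followed by Klrc1 at 15.5 ± 6.11 and Klrd1 at 14.6 ± 6.33. Klrb1b (9.43 ± 2.32), Ncr1 (7.08 ± 2.91) and Klre1 (5.96 ± 2.21) came next. Klrb1c (2.94 ± 1.32), Klrc2 (2.86 ± 1.06) and Klri2 (2.68 ± 0.42) were lower, and Klrg1 was last at 1.06 ± 0.34. In this order, only Klrk1 over Klrc1 and Klri2 over Klrg1 were neighbors whose mean ± SD did not overlap. In non-responders no neighbors were separate in this sense, from Klrk1 at 15.4 ± 7.76 to Klrg1 at 0.80 ± 0.34 CPM per kilobase (SD, n = 4). The order depends on the length used: per kilobase of all annotated exons, Klrd1 was first in responders at 10.2 CPM per kilobase, Ncr1 next at 6.80 and Klrk1 after it at 6.23.

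Whether the receptors changed in proportion to one another was examined with 8 ratios within each tumor, each tested two-sided by exact permutation of all 210 splits, for which 0.00476 is the smallest p. None of the 8 differed between groups, at an adjusted or an unadjusted p under 0.05. The log2 ratio of inhibitory Klrc1 to activating Klrc2 was 1.88 ± 0.16 over the 6 responders and 1.68 ± 0.75 over the 4 non-responders (SD; exact permutation p = 0.519, adjusted p = 0.648). For inhibitory Klrb1b over activating Klrb1c it was 1.60 ± 0.35 and 1.26 ± 0.24 (exact permutation p = 0.119, adjusted p = 0.429). Klrk1 over Ncr1 gave 2.16 ± 0.49 and 1.84 ± 0.42 (exact permutation p = 0.357, adjusted p = 0.571), and Klrd1 over Ncr1 gave 0.30 ± 0.75 and -0.005 ± 0.14 (exact permutation p = 0.567, adjusted p = 0.648). Klrg1 over Ncr1 was -2.76 ± 0.55 and -2.15 ± 0.57 (exact permutation p = 0.124, adjusted p = 0.429). These groups are small, and a p that misses the threshold does not show that the ratios were alike.

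Relative to other cells, Ncr1 over Ptprc, the gene of the pan-leukocyte antigen CD45, was -5.27 ± 0.46 in responders and -5.67 ± 0.49 in non-responders (exact permutation p = 0.214, adjusted p = 0.429). Ncr1 over Cd3e, a chain of the T cell receptor complex, was -0.68 ± 0.84 and -0.53 ± 0.44 (exact permutation p = 0.824, adjusted p = 0.824). Cd8a, a chain of the CD8 coreceptor, over Ncr1 was 1.59 ± 1.09 and 0.74 ± 0.59 (exact permutation p = 0.210, adjusted p = 0.429). Responder 1 stood apart in these ratios. Its log2 ratio of Cd8a to Ncr1 was 3.53, where the other responders lay between 0.26 and 1.76, and its ratio of Klrd1 to Ncr1 was 1.70, where they lay between -0.39 and 0.45. Without responder 1 the unadjusted exact permutation p of Ncr1 over Ptprc was 0.0397. Without responder 5 that of Klrb1b over Klrb1c was 0.0476, without responder 6 that of Klrg1 over Ncr1 was 0.0476, and without non-responder 1 that of Klrc1 over Klrc2 was 0.0238. None of these passed adjustment.

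**Figure D3:**
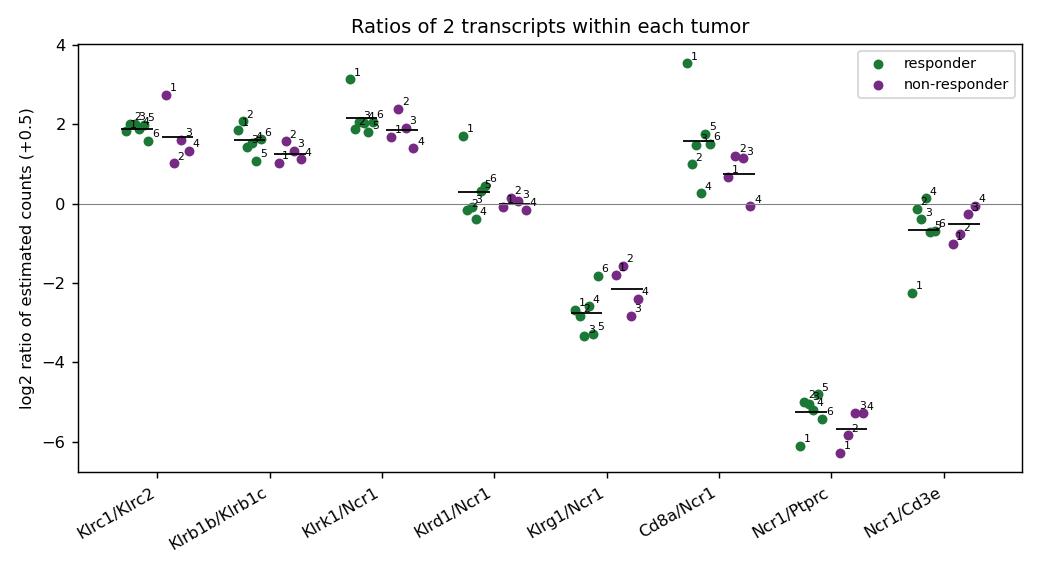
Log2 ratio of the estimated counts of 2 genes (each with 0.5 added) within each tumor, with responders in green, non-responders in purple, tumor numbers beside the points and lines at group means. The groups overlap in all 8 ratios, and responder 1 has the highest ratios of Klrk1, Klrd1 and Cd8a to Ncr1 and the lowest ratio of Ncr1 to Cd3e among responders.

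Markers of other cells moved with the groups too. Cd8a was at 62.7, 22.6, 32.5, 10.6, 60.4 and 22.0 CPM in responders 1 to 6 and at 3.67, 12.4, 16.0 and 5.70 CPM in non-responders 1 to 4 (log2 fold change 1.91, edgeR adjusted p = 0.0535, SE 0.55). Responders 1 and 5 were its highest tumors, as for Klrd1, Klrc1, Klrc2 and Klre1. Cd3e had a log2 fold change of 1.27 (edgeR, adjusted p = 0.0523, SE 0.36), and 1 of the 10 T cell markers, Cd8b1, passed the threshold. All 10 T cell markers had higher estimates and 8 were higher at an unadjusted p under 0.05, with a median log2 fold change of 0.98. Ptprc was 380 ± 63.1 CPM in responders and 251 ± 55.6 CPM in non-responders with no overlap (log2 fold change 0.60, edgeR adjusted p = 0.0413, SE 0.15). Of 6 macrophage markers, 5 rose. The summed level of T cell markers was between 135 and 326 CPM in responders and between 81.6 and 156 CPM in non-responders, that of macrophage markers between 1651 and 2513 CPM against 1117 and 1542 CPM, that of muscle markers between 348 and 1122 CPM against 308 and 402 CPM, and that of adipocyte markers between 15.6 and 52.1 CPM against 8.54 and 19.2 CPM. Of 5 muscle markers, 2 rose, Ckm (edgeR adjusted p = 0.0464) and Acta1 (edgeR adjusted p = 0.0391), and all 5 were higher at an unadjusted p under 0.05, with a median log2 fold change of 1.02. All 4 adipocyte markers tested were higher at an unadjusted p under 0.05 and 0 passed the adjusted threshold, with a median log2 fold change of 2.05, above the 1.15 of the members. Over all genes tested, 4.71% rose and 15.6% were higher at an unadjusted p under 0.05. When the log2 CPM of Ptprc or of Cd3e was added to the fit, 0 members and 0 of all genes passed the adjusted threshold, with 0 members at an unadjusted p under 0.05 beside Ptprc and 1 beside Cd3e. The part of macrophage, muscle and fat content in the members' difference was not tested.

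The labelled tumor type was checked as well. Of 8 epithelial markers, Epcam, Krt8, Krt18 and Vil1 were below the filter on low counts. The 4 that were tested had lower estimates in responders with none past the threshold, and their median log2 fold change was -0.80. Of these 4, 2 were lower at an unadjusted p under 0.05, as were 2166 of all 16041 genes tested. The summed level of all 8 markers was between 17.2 and 42.4 CPM in responders and between 39.8 and 82.2 CPM in non-responders. Of the markers of gamma-delta T cells and innate lymphoid cells, 4 of 8 were tested, and none passed at an adjusted or unadjusted p under 0.05. Library totals ranged from 29065126 to 38042544 estimated counts among responders and from 23374649 to 32986456 among non-responders.

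Other NK receptors were higher in responders as well. Of the 23 further receptor genes in the table, 16 passed the filter. One of them, Klrh1, passed it through the responders alone and is described apart. Of the other 15, 3 rose at an adjusted p under 0.05 and 11 were higher at an unadjusted p under 0.05, against 4.71% and 15.6% of all genes tested. Their median log2 fold change was 1.07. Klra2 (Ly49B), an inhibitory Ly49 receptor that is also found on myeloid cells, was 53.6 ± 7.35 CPM in responders and 25.6 ± 10.7 CPM in non-responders (log2 fold change 1.07, edgeR adjusted p = 0.0310, SE 0.23). Klra17 (Ly49Q), best known from plasmacytoid dendritic cells (log2 fold change 1.62, edgeR adjusted p = 0.0452, SE 0.43) rose from a lower level of 1.44 ± 0.62 to 4.41 ± 2.50 CPM. Cd226 (DNAM-1), an activating receptor for the product of Pvr, was 5.12 ± 1.88 CPM in responders and 2.05 ± 0.56 CPM in non-responders (log2 fold change 1.31, edgeR adjusted p = 0.0330, SE 0.30). Klrh1 was near the floor of detection, at 3.80, 0.37, 1.14, 0.40, 2.43 and 0.60 CPM in responders 1 to 6 and at 0, 0.26, 0.17 and 0.03 CPM in non-responders 1 to 4. No non-responder reached the minimum of the filter and every responder did, so a difference followed from its being tested, and its test and fold change are not given. Of the Klra genes, 6 in the table did not pass the filter, in tumors of a strain whose Klra cluster differs from the reference.

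Adaptor and signaling genes downstream of the receptors were the group with the most calls. Of 17 genes, 11 rose and 15 were higher at an unadjusted p under 0.05, against 4.71% and 15.6% of all genes tested. Their median log2 fold change was 0.60, smaller than that of the receptors. Tyrobp (DAP12), the adaptor of several activating lectin-like receptors, was 146 ± 22.4 CPM against 101 ± 13.5 CPM (log2 fold change 0.54, edgeR adjusted p = 0.0311, SE 0.12). Fcer1g, the adaptor of NKp46 and NKR-P1C, had a log2 fold change of 0.71 (edgeR, adjusted p = 0.0372, SE 0.17). Sh2d1b1 (EAT-2), a SLAM-family adaptor, had a log2 fold change of 1.26 (edgeR, adjusted p = 0.0317, SE 0.28). The kinases Lck (1.11), Fyn (0.52) and Syk (0.51) rose on the log2 scale. So did Plcg2 (0.40), Lcp2 (0.67) and Vav1 (0.50), which carry the activating signal, and Ptpn6 (0.54) and Inpp5d (0.38), the phosphatases recruited by ITIMs. Macrophages also carry Tyrobp, Fcer1g, Syk, Plcg2, Ptpn6 and Inpp5d, and their markers moved with the groups as given above. Hcst (DAP10), the adaptor of NKG2D, was 3.48 ± 1.10 CPM against 2.29 ± 0.67 CPM and did not pass (log2 fold change 0.60, edgeR adjusted p = 0.154, SE 0.26).

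The ligands of these receptors did not move as 1 group. Of 15 ligands with a row, 13 were tested, with 7 higher and 6 lower estimates and a median log2 fold change of 0.04. One passed the threshold: Pvr, a ligand of Cd226, was lower in responders, at 66.1 ± 7.48 CPM against 87.0 ± 10.7 CPM (log2 fold change -0.39, edgeR adjusted p = 0.0378, SE 0.10), where 3.35% of all genes were called lower. The groups overlapped, as non-responder 4 at 73.1 CPM lay below responder 4 at 75.0 CPM. H2-T23, which encodes the Qa-1 ligand of NKG2A and NKG2C, was at 420, 383, 387, 353, 453 and 330 CPM in responders 1 to 6 and at 79.6, 301, 253 and 208 CPM in non-responders 1 to 4. Every responder lay above every non-responder, although the fit did not pass (log2 fold change 0.88, edgeR adjusted p = 0.0684, SE 0.28). Cdh2, a cadherin ligand of Klrg1, was 78.2 ± 10.3 CPM against 94.9 ± 3.19 CPM, lower in every responder and short of the threshold (log2 fold change -0.28, edgeR adjusted p = 0.0737, SE 0.09). The NKG2D ligand genes Raet1b, Raet1c, Raet1d and H60a had no row under these symbols and were not examined. None of the 5 tested NKG2D ligands passed, and the most abundant of them, Ulbp1, was 34.9 ± 2.07 CPM against 38.6 ± 2.42 CPM (edgeR adjusted p = 0.122). It was named after its values were seen.

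**Figure D4:**
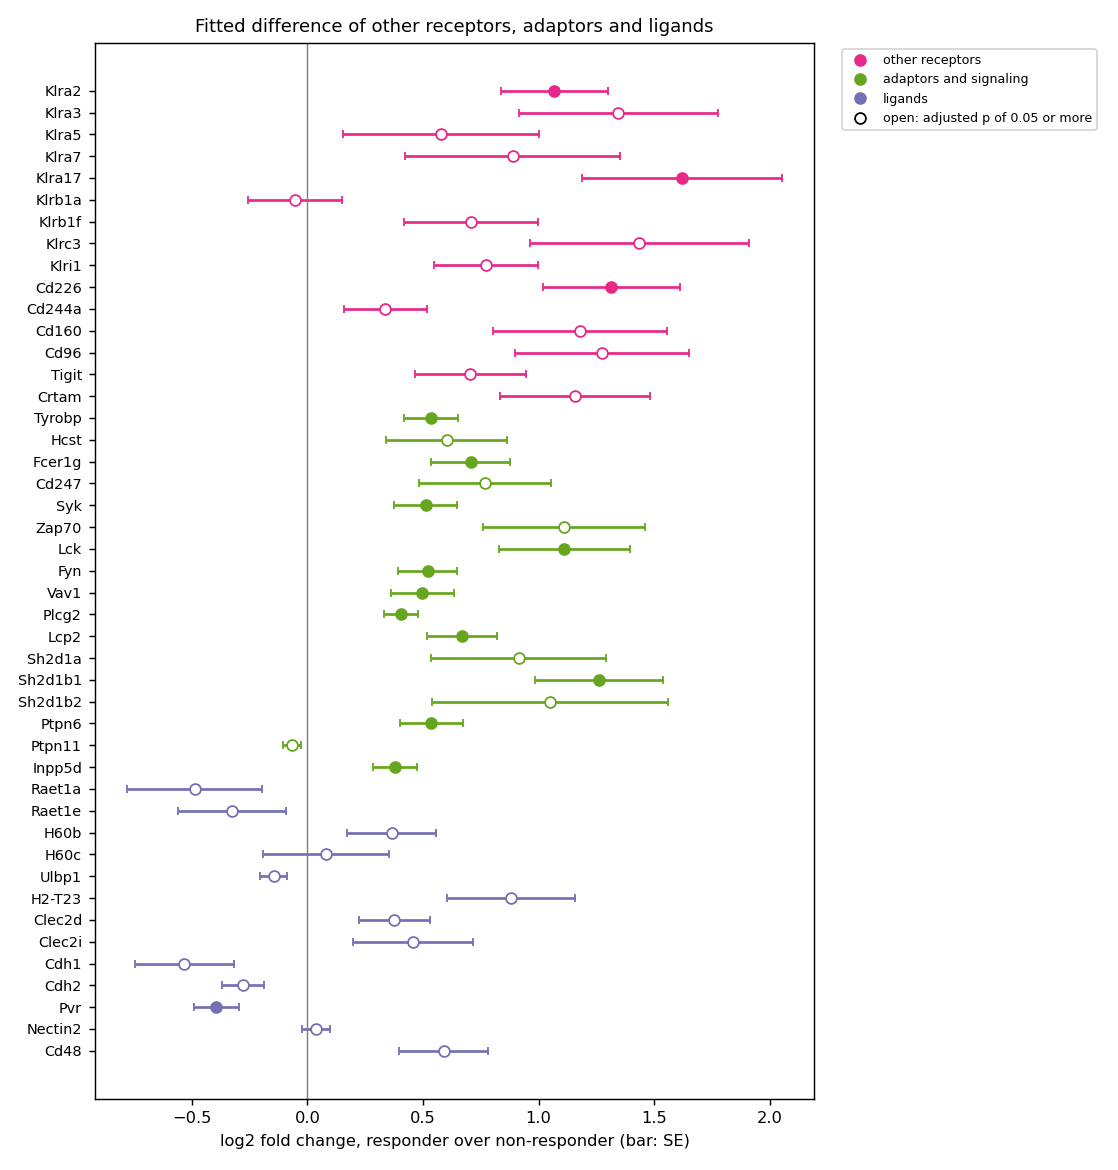
Log2 fold change, responders over non-responders, with bars of 1 SE for the tested genes among other NK receptors, adaptors and signaling genes, and ligands; filled points have an adjusted p under 0.05 and Klrh1 is not drawn. Of the receptors 3 of 15 and of the adaptors 11 of 17 are filled to the right of 0, and of the 13 ligands Pvr alone is filled, to the left.

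Genes of NK cell development and function were mostly higher. Of 21 genes 20 were tested, and 3 rose, against 4.71% of all genes tested. Of the 20, 19 had higher estimates, with a median log2 fold change of 0.78. The gene with a lower estimate was Itga2, at 49.3 ± 11.5 CPM in responders and 74.0 ± 15.1 CPM in non-responders. Its groups overlapped and it did not pass (log2 fold change -0.59, edgeR adjusted p = 0.0567, SE 0.17). Those that rose were Tbx21, the transcription factor T-bet (4.68 ± 2.26 against 1.57 ± 0.48 CPM, log2 fold change 1.57, edgeR adjusted p = 0.0372, SE 0.38), Id2, a regulator of innate lymphoid fate (log2 fold change 0.50, edgeR adjusted p = 0.0461, SE 0.13), and Fasl, a death ligand of cytotoxic cells (4.66 ± 1.91 against 1.92 ± 0.76 CPM, log2 fold change 1.28, edgeR adjusted p = 0.0467, SE 0.35). These genes are shared with T cells. Over the 4 lists, 19 of 66 tested genes passed the threshold, or 18 of 65 without Klrh1. The number out of all those tested ranged from 0 to 27 when 1 tumor was left out, in the same fits that moved the calls over all genes. It was 0 without responder 3, non-responder 1 or non-responder 4, 1 without responder 2, 2 without responder 5 or non-responder 3, 4 without responder 1, and 9 without responder 6.

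The genes whose log2 CPM most resembled the mean z-score of the 10 members over the 10 tumors were not NK genes. They were Tifab (Pearson r = 0.994) and the MHC class II genes H2-Aa (r = 0.993), H2-Eb1 (r = 0.992), H2-Ea (r = 0.992) and H2-Ab1 (r = 0.992), which mark antigen-presenting cells. Within the 6 responders their r was between 0.949 and 0.970. Likeness of this kind was common, with r above 0.9 for 875 of 13723 genes. The part of cell content in it was not tested, so it is given as a description only.

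Promoters of the members that rose are shown as a description, and whether these genes are regulated together was not tested. RefSeq promoter sequences on GRCm38.p6 matched 7 of the 10 members with 11 start sites, and the 250 bases before the start were searched on both strands for TGTGGT (RUNX), AGGTGTGA (T-box) and AGGAAG (ETS). The RUNX letters were found at 8 of the 11 member start sites and at 14% of all 32851 promoters, and in 6 of the 7 genes. The 8 sites include 2 each for Ncr1 and Klrc2, whose windows overlap. The RUNX matches of Klrb1c, Klre1 and Klrc2 lie inside the GENCODE gene, and only those of Klrk1, Klrc1 and Ncr1 lie before it. The share over all promoters was not corrected for either point. The ETS letters were found at 4 of the 11 and at 29.5% of all, and the T-box letters at 0 of the 11 and at 1.12% of all. The ETS matches of Klrb1c and Klre1 also lie inside the gene, and Klrb1b accounts for 2 of the sites. These motifs do not overlap one another in letters, and a match is a description, not a binding site. The bases before the GENCODE start of Klrk1 (chr6:129623865-129624114), Klrc1 (chr6:129678974-129679223) and Klrb1b (chr6:128826332-128826565), all on the minus strand, are printed 5′ to 3′ with motif letters or their reverse complement in capitals.
Klrk1: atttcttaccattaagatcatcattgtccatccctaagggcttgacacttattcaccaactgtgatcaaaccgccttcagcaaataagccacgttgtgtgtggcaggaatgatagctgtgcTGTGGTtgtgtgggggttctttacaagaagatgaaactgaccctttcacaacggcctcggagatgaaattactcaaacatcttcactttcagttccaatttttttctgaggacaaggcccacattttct
Klrc1: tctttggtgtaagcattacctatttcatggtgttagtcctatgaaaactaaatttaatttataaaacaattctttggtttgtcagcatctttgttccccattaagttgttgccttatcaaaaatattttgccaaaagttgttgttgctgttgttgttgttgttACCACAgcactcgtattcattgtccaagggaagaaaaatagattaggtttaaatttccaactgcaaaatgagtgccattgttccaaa
Klrb1b: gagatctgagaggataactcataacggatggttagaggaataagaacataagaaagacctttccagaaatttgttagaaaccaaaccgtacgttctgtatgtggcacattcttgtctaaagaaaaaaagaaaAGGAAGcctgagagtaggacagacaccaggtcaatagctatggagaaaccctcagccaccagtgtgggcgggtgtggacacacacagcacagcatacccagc
Klrk1 and Klrc1 each hold 1 RUNX match and Klrb1b holds an ETS match. Of the other 2 genes that rose, Klre1 has no bases left before its GENCODE start and Klri2 was not matched.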

How the data were processed

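RNA was measured by polyA RNA sequencing with paired 150-base reads in 10 resected tumors, and response in the labels set the groups. The authors estimated transcript abundance with Kallisto and summed it to genes with tximport on mm10. What was deposited is a table of expected counts per gene, unscaled for depth, of which 45.1% were not whole numbers. The annotation release, tximport option and strand setting were not given in the sources used here. The reference is of another strain than the mice, and pseudoalignment divides reads among paralogs by estimate.

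Counts were rounded and fitted in edgeR 4.0.16 (R 4.3.3) after filterByExpr (minimum count 10, minimum total count 15, 16041 genes kept) and TMM scaling, by the quasi-likelihood test, two-sided, with Benjamini-Hochberg adjustment over all genes tested and a threshold of 0.05. CPM is relative to the TMM-scaled library, log2 CPM used a prior count of 2, and the SE is the absolute log2 fold change over the root of the F statistic. Log2 ratios used counts plus 0.5. The members and lists were chosen with earlier results of these data known. Named genes are all members, the listed genes with an adjusted p under 0.05 or otherwise the 3 with the smallest p in a list, the 5 genes most like the members by Pearson r at a mean of at least 1 CPM, Ptprc, Cd3e and Cd8a, with the promoters of members past the threshold. Hcst, Itga2, Cd8b1, Ckm, Acta1 and Gm44511 were named beyond this rule, after their values were seen. Alternatives were DESeq2 1.42.0, other scalings, no filter, thinned counts, Ptprc or Cd3e as a covariate, an adjusted p under 0.1, and each tumor left out. The labels give no batch. The paper counts these groups in mice and calls their samples biologically independent, so p-values measure the spread between tumors of these mice. Symbols of 1 receptor, 5 ligand and 4 lymphocyte entries of the lists were not matched and were not analysed here, of which 2 are older symbols of genes that were.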

Additional observations from a re-analysis of the deposited data

Results flagged for a closer look

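Of 38 sets of values (10 members, 8 ratios and the members' sum, each within responders and within non-responders), 3 held a tumor far from the rest by Dixon's gap over range, and chance gives about 1 in 20, or 1.9 here. Klrb1c in responder 5 was 7.13 CPM, with the next responder at 3.40 CPM (gap over range 0.805, 6 tumors). The log2 ratio of Klrk1 to Ncr1 in responder 1 was 3.14, with the next responder at 2.07 (gap over range 0.799). The log2 ratio of Ncr1 to Cd3e in responder 1 was -2.25, with the next responder at -0.72 (gap over range 0.64).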

How the results depend on the processing

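Of the members, 5 passed in the fit reported and 5 under DESeq2 size factors in edgeR, upper-quartile scaling, no filter and thinned counts. The number was 8 with DESeq2 and 8 at an adjusted p under 0.1, 0 with Ptprc as a covariate, 0 with Cd3e as a covariate, and from 0 to 6 with 1 tumor left out. Of the other listed genes, 19 passed, 40 with DESeq2, 37 at an adjusted p under 0.1, 0 with Ptprc and 0 with Cd3e, and from 0 to 27 with 1 tumor left out. Over all genes, DESeq2 called 2602 and edgeR 1293, 931 without the filter, 0 with either covariate and from 0 to 1897 with 1 tumor left out. Beside Ptprc, 4 members turned direction: Ncr1 (log2 fold change -0.065), Klrb1c (-0.17), Klrc2 (-0.30) and Klrg1 (-0.043). Ptprc did not overlap between the groups, so it and response cannot be told apart in 10 tumors. No other alternative of the 17 run on each member turned a direction. The number of ratios that passed was 0 in all alternatives. The cause of the changed counts was not tested. The value of Klrc2 in non-responder 1, at 3 counts, is limited by depth. No paired analysis was possible because the labels give no replicate numbers that tumors of the groups share.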

Other observations

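Cytotoxic genes differed in how they ranked responder 1, a description chosen after the values were seen. Gzma, which encodes granzyme A, was at 16.0 CPM there, below the other responders (31.8 to 55.2 CPM) and below 3 of the 4 non-responders. Prf1, which encodes perforin, was at 48.2 CPM in the same tumor, inside the range of the other responders (31.2 to 58.6 CPM). Ncr1 was also lowest among responders in this tumor, and Cd8a was highest. In neither Gzma (log2 fold change 0.63, SE 0.38, edgeR adjusted p = 0.301) nor Prf1 (log2 fold change 1.33, SE 0.42, edgeR adjusted p = 0.0706) did the groups differ past the threshold.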
